A study of Arabidopsis lyrata with 12 samples.

Results

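The genes described here carried trimethylated lysine 4 of histone H3 (H3K4me3) and none of 3 other chromatin marks, yet stood at the lowest mRNA value of the study's table. They were taken from young leaves of Arabidopsis lyrata accession MN47, a wild relative of Arabidopsis thaliana, grown in soil with 16 h of light and 8 h of dark at 22.5 °C. A gene belonged to the group when its mean exon coverage was exactly 1 and H3K4me3 domains lay over at least 200 bp of its span, or over all of a shorter span. In addition, fewer bp than that had to lie in domains of trimethylated H3 lysine 27 (H3K27me3), of monomethylated H3 lysine 27 (H3K27me1) and of 5-methylcytosine (5mC). Of 24268 listed genes, 134 met this rule. The genes were thus chosen by their mRNA coverage and by the bp of their span in the 4 domain lists, and those values are given as a description, with no test.

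All libraries came from the same accession and tissue, with no treatment or mutation named in the labels. Each mark had 2 libraries (chromatin precipitated with an antibody, or methylated DNA precipitated in the case of 5mC) and 1 deposited domain list. A single library measured mRNA. The lists hold no values per replicate and there is 1 condition, so no value here has a replicate error and no conditions were compared. Intervals on shares and medians are exact binomial 95% intervals and cover counting error only. What a coverage of exactly 1 stands for, a set floor or single reads over covered bases, is not stated for the table. Sequencing depth is unknown too, and at a coverage of exactly 1 little transcript and few reads cannot be told apart.

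H3K4me3 is written by methyltransferases of the Trithorax group and is known from the first part of transcribed plant genes, downstream of the transcription start. It recruits proteins with PHD-type reader domains and accompanies transcription, while H3K27me3 is the mark of repression by Polycomb complexes. H3K27me1 and dense cytosine methylation are known from transposons and other heterochromatin in Arabidopsis thaliana.

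The 134 genes made up 0.872% of the 15362 genes with H3K4me3 alone (interval 0.731 to 1.03%) and 6.71% (interval 5.65 to 7.89%) of the 1998 genes at a coverage of exactly 1. For background, 63.3% of all listed genes carried H3K4me3 alone and 8.23% were listed at exactly 1. Another 305 genes at exactly 1 had H3K4me3 with at least 1 other mark, and 1559 had no H3K4me3 at the 200-bp threshold. The group lay on all 8 main scaffolds, from 9 genes on scaffold 5 to 24 on scaffold 1. As a share of the genes with H3K4me3 alone, it ran from 0.557% on scaffold 5 to 1.18% on scaffold 4, with overlapping intervals. On the small scaffolds it was 2.33% (6 of 257 genes, interval 0.861 to 5.01%). In 1 pair, 2 genes of the 134, the next listed gene was also one of them. The group made up 0.552% of all listed genes, and whether it was scattered or clustered was not tested.

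The rule has sharp edges. Just above the coverage edge, the 5 nearest genes with H3K4me3 alone had a coverage of 1.00458, 1.00535, 1.00535, 1.02452 and 1.03261, and 29 genes lay above 1 and at or below 1.1. At the bp edge, 3 genes of at least 200 bp held less than 250 bp of H3K4me3, namely 232, 232 and 245 bp. Outside it, 10 genes at exactly 1 held at least 150 but under 200 bp and no mark at the threshold, with 179 and 154 bp as the highest values and 150 bp in the other 8.

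The genes were short. Their span had a median of 1311 bp (interval 1061 to 1552 bp, quartiles 696.5 and 2102 bp), and ran from 72 bp to 7263 bp. The 15228 other genes with H3K4me3 alone, those with a coverage above 1, had a median span of 2268 bp (quartiles 1604 and 3225 bp). Genes at exactly 1 without H3K4me3 lay between, with a median of 1831 bp. Short spans were common at exactly 1 throughout the table. Of all listed genes, 25% of those under 500 bp were listed there and 14.7% of those of 500 bp to under 1000 bp. It was 8.51% at 1000 bp to under 2000 bp and 5.89% at 2000 bp to under 4000 bp. At 4000 bp and more it was 8.20%, so the share did not fall at every step. Among genes with H3K4me3 alone the shares in the same bins, from short to long, were 10.6%, 3.17%, 1.04%, 0.427% and 0.232%. Span moves with the coverage that chose these genes. For this reason H3K4me3 bp, domain width, score per bp, uncovered ends and place along the span are also given within bins of span. Other values pool all spans unless a span is named.

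**Figure D1:**
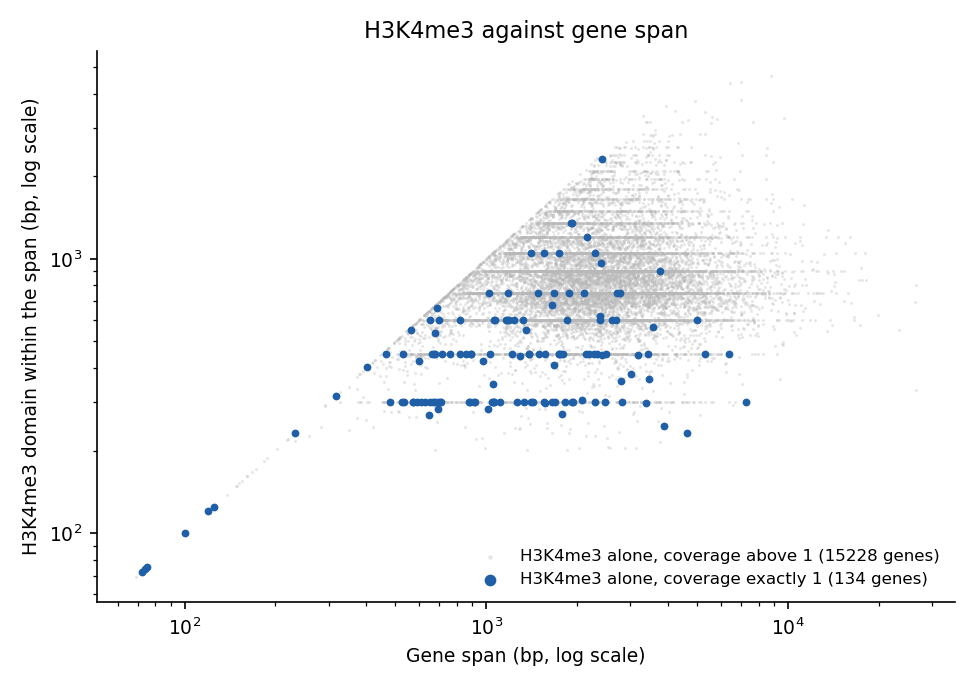
Base pairs of H3K4me3 domain inside the gene (vertical, log scale) against gene span (horizontal, log scale), 1 point per gene. The 134 genes at coverage exactly 1 (blue) lie towards shorter spans and along the lowest rows of the 150-bp grid, at 300 and 450 bp, below most of the 15228 genes above 1 (grey).

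H3K4me3 in these genes was narrow. Domain edges fall on a grid of 150 bp, and 42 of the 134 genes (31.3%, interval 23.6 to 39.9%) had a largest domain of 300 bp. A further 38 had one of 450 bp. Among the genes above 1, 2.19% had a largest domain of 300 bp and 5.29% one of 450 bp. The largest domain measured 450 bp in the median (quartiles 300 and 600 bp), against 900 bp (lower quartile 750 bp). All but 4 of the 134 genes had a single domain. Inside the span, the domains covered a median of 450 bp (interval 360 to 450 bp), against 797 bp in the genes above 1.

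From 500 bp of span upwards, the narrow domains were also seen at equal span. Under 500 bp they were not: the largest domain measured 600 bp in the median in 11 genes at exactly 1 and in 93 genes above 1, and was of 300 bp in 1 of the 11 (9.09%, interval 0.230 to 41.3%) against 26.9%. Among spans of 1000 bp to under 2000 bp, the 51 genes at exactly 1 held a median of 450 bp of H3K4me3, against 819 bp in 4863 genes above 1. Among spans of 2000 bp to under 4000 bp it was 450 bp in 30 genes, against 841 bp in 6992. Largest domains of 300 bp were found in 31.4% of the first of these bins (interval 19.1 to 45.9%) and in 2.20% of the genes above 1, and in 16.7% (interval 5.64 to 34.7%) against 1.33% in the second. As a share of the span, the median was 40.1% over the 134 genes and 37.1% over the genes above 1. Within the same bins of span the medians were further apart, at 32.4% against 53.1% and at 19.5% against 31.1%.

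**Figure D2:**
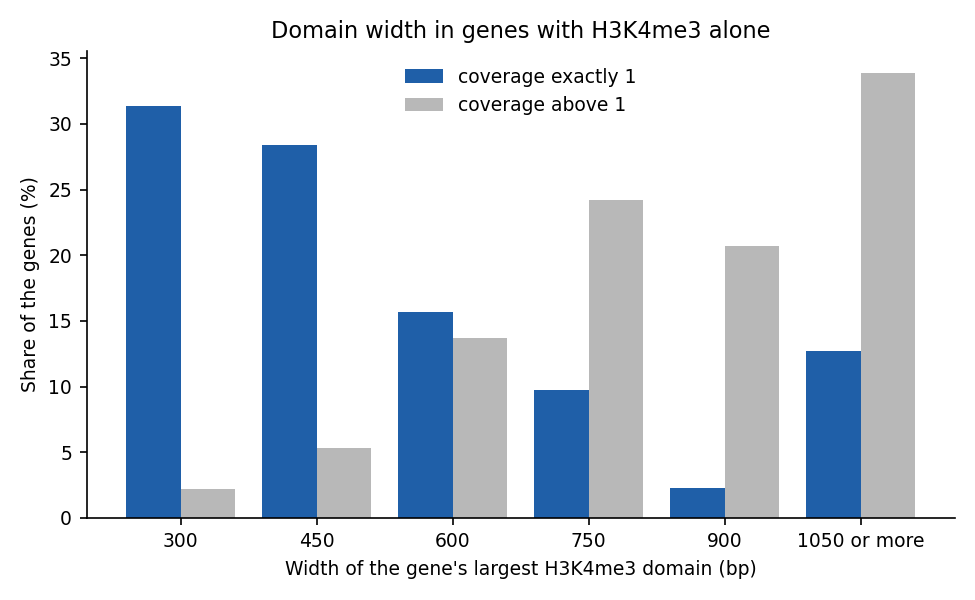
Share of genes with H3K4me3 alone (vertical, %) by the width of their largest H3K4me3 domain (horizontal, bp), for coverage exactly 1 (blue, 134 genes) and above 1 (grey, 15228 genes, of which 2 with a domain of 150 bp are not drawn). Domains of 300 and 450 bp hold 31.3% and 28.4% of the blue genes, and the last class, which pools all greater widths, holds 12.7% of the blue and 33.9% of the grey genes.

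Read the other way, the share of genes listed at exactly 1 fell with width up to 900 bp. It was 11.2% of the 375 genes with H3K4me3 alone and a largest domain of 300 bp (interval 8.19 to 14.8%), 4.50% at 450 bp, 0.995% at 600 bp and 0.352% at 750 bp. The lowest share, 0.0949% (3 of 3161 genes, interval 0.0196 to 0.277%), stood at 900 bp. In domains wider than 900 bp it was 0.328% (17 of 5176 genes, interval 0.191 to 0.525%), which overlaps the interval at 900 bp. Without the genes whose domain also lay on another listed gene, the shares were 11.4% at 300 bp, 0.0327% at 900 bp (1 of 3056) and 0.188% above 900 bp (8 of 4258).

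The domains also had lower scores per bp than those of the genes above 1, though not at each width. The deposited score is the authors' value per domain, and what it counts is not stated. It rises with width (Spearman 0.860 over the 21676 H3K4me3 domains, which share 1 list), so it is given here per bp. For the largest domain of each gene, the median was 0.662 per bp at exactly 1 (interval 0.62 to 0.782, quartiles 0.557 and 1.06) and 1.41 per bp in the genes above 1 (upper quartile 1.85). Values rose through the bins of coverage. The median score per bp was 0.835 in the 307 genes with a coverage above 1 to 1.5 and 0.980 in the 422 above 1.5 to 2. It was 1.195 above 2 to 5, 1.36 above 5 to 10 and 1.55 in the 7841 genes above 10. The quartiles of neighbouring bins overlap throughout. The genes at exactly 1 stood at the low end of this order, and the bin just above 1 came closest to them. Under 500 bp of span the median was 0.987 per bp in 11 genes at exactly 1 and 1.07 in 93 genes above 1, with overlapping quartiles. At longer spans the medians were further apart. They were 0.658 against 1.40 at 500 bp to under 1000 bp and 0.639 against 1.42 at 1000 bp to under 2000 bp. At 2000 bp to under 4000 bp they were 0.704 against 1.40.

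**Figure D3:**
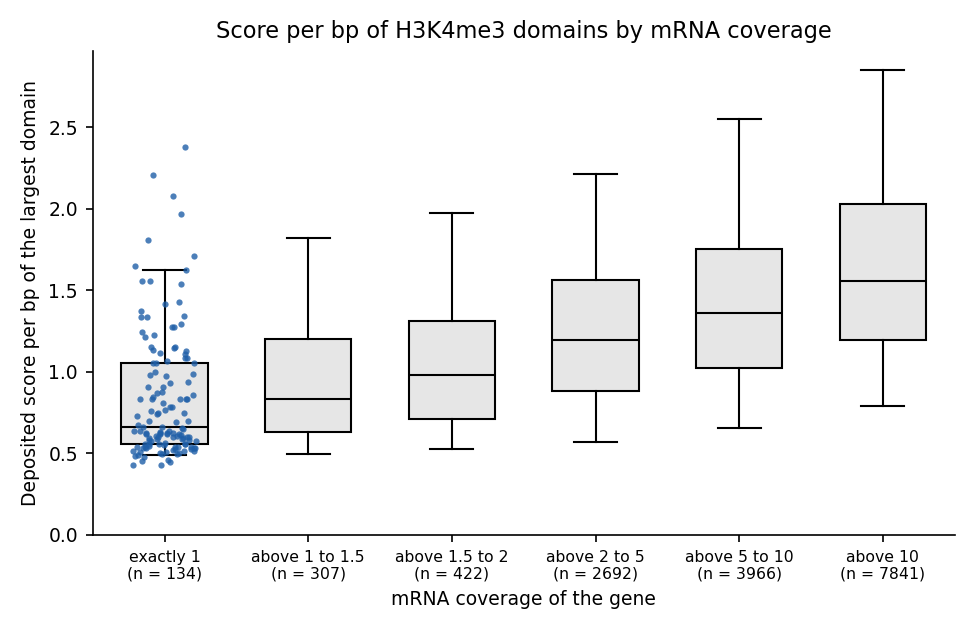
Deposited score per bp of the largest H3K4me3 domain (vertical) in genes with H3K4me3 alone, by mRNA coverage (horizontal). Boxes show quartiles and median, whiskers the 5th and 95th percentiles, and blue points the 134 genes at exactly 1, whose median of 0.662 is the lowest of the 6 bins and whose highest value is 2.38.

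Width and score per bp move together, so domains of one width were also set side by side. At 300 bp the median score per bp was 0.605 in 42 genes at exactly 1 and 0.633 in 333 genes above 1, within the quartiles of both. At 450 bp it was 0.63 (38 genes, quartiles 0.551 and 1.04) against 0.834 (806 genes). The gap was wider at 600 bp, with 0.758 (21 genes, quartiles 0.538 and 0.987) against 1.16 (2089 genes), and at 750 bp, with 0.835 (13 genes) against 1.36 (3681 genes). Only 18 of the 134 genes (13.4%, interval 8.16 to 20.4%) had their largest domain in the upper 50% of the H3K4me3 list by score, against 63.6% of the genes above 1 and 20.8% of those with a coverage above 1 to 1.5. That share uses the total score, which rises with width, and it is not matched for width. H3K4me3 domains that touched no listed gene, 1782 in number, had a median width of 450 bp and a median of 0.61 per bp.

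In most of these genes the H3K4me3 domains covered neither end of the span. In 96 of the 134 genes (71.6%, interval 63.2 to 79.1%) neither end of the span was in a domain, against 42.0% of the genes above 1. One end was in a domain in 29 genes (21.6%) and both in 9 (6.72%), against 55.3% and 2.77%. These shares are not matched for domain width, whose median was 450 bp against 900 bp, and the part of width in them was not tested. They are not matched for span either. A span under 200 bp meets the rule only with both ends in a domain, so the share with both ends depends on how many such spans there are. Without strand in the table, a start cannot be told from an end of transcription. Under 500 bp of span neither end was covered in 1 of 11 genes (9.09%, interval 0.230 to 41.3%), against 18.3% of the genes above 1, a value inside the interval. At longer spans uncovered ends were more frequent in the genes at exactly 1: 84.3% (interval 71.4 to 93.0%) against 41.8% at 1000 bp to under 2000 bp, and 18 of 30 genes (interval 40.6 to 77.3%) against 43.3% at 2000 bp to under 4000 bp, where the interval reaches below the value of the genes above 1.

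The centre of the covered part lay a median of 286.5 bp from the nearer end, against 432.5 bp in the genes above 1. On a scale of the span from 0 at an end to 0.5 in the middle, the median place was 0.330 against 0.208. Under 500 bp of span it was 0.5 against 0.498, and a span wholly in domains takes 0.5 by construction. From there to 4000 bp the order turned round within bins of span: it was 0.423 against 0.449 at 500 bp to under 1000 bp, 0.235 against 0.287 at 1000 bp to under 2000 bp and 0.142 against 0.170 at 2000 bp to under 4000 bp. Along the 86 genes of at least 1000 bp, H3K4me3 was found at 15.1% of gene ends in the outermost 2.5% of the span, rose to 38.4% around 21.25% of the span, and was at 30.2% in the middle. In the 7177 genes with a coverage above 10, it stood at 38.2% in the outermost part, 51.4% around 13.75% of the span and 36.8% in the middle. Spans were not matched between these sets of genes.

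**Figure D4:**
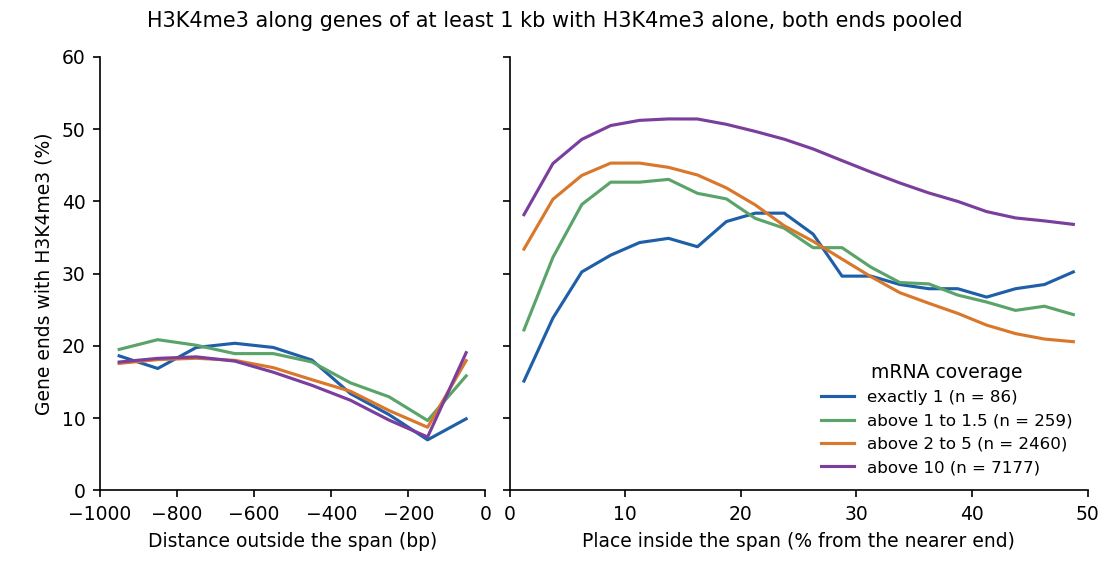
Share of gene ends with H3K4me3 (vertical, %) outside the span (left, bp) and inside it (right, % of the span from the nearer end), for genes of at least 1000 bp with H3K4me3 alone in 4 bins of mRNA coverage. Both ends of each gene are pooled, so a domain at 1 end of every gene gives 50%. The genes at exactly 1 (blue) start at 15.1% and peak at 38.4%, at a higher % of the span than the other bins drawn. Spans are not matched between the bins.

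Most of these genes did not share their domain with a listed neighbour. In 13 of the 134 (9.70%, interval 5.27 to 16.0%) an H3K4me3 domain also lay on another listed gene with a coverage above 1. The same was true of 8.02% of the genes above 1, a value inside that interval. With a partner of at least 10 in coverage, the count was 9 of 134 (6.72%, interval 3.12 to 12.4%) against a background of 3.85%, also inside the interval. One more gene shared its domain with a gene that was itself at 1. For 120 genes the domain lay on no other listed gene, and in 97 of these the domains were wholly inside the span. From those 120 domains, the nearest listed gene above 1 was a median of 1042 bp away (quartiles 434 and 2656 bp, 117 genes with such a gene on their scaffold).

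**Figure D5:**
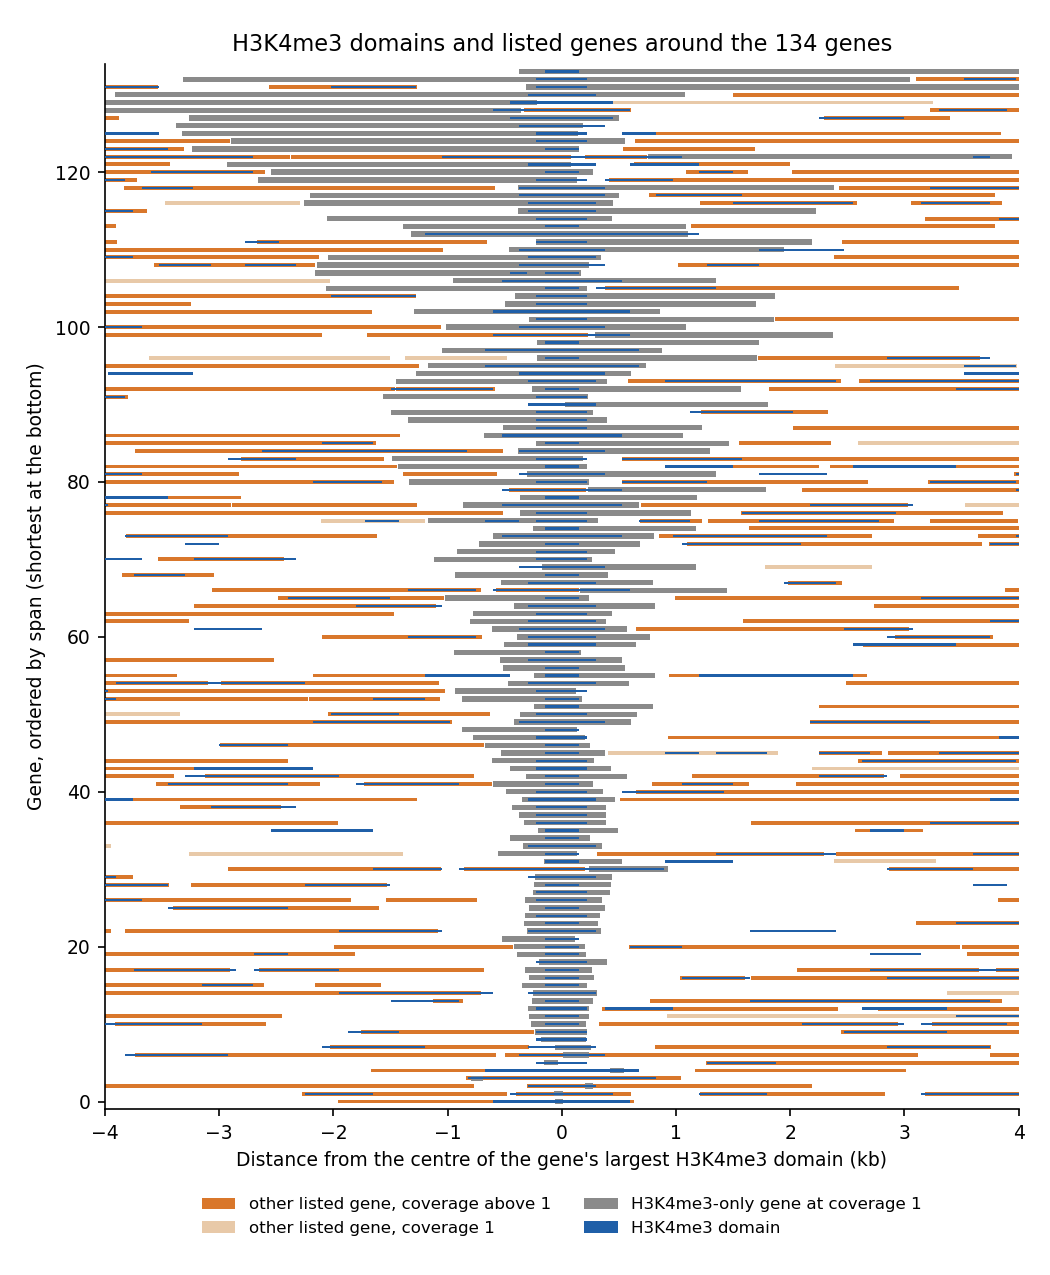
Each row is 1 of the 134 genes (dark grey), ordered by span and centred on its largest H3K4me3 domain (blue), within 4 kb to each side (horizontal, kb); other listed genes are orange (coverage above 1) or pale (coverage 1). In most rows the central domain sits inside the grey gene, and in the shortest rows, at the bottom, it extends over an orange gene.

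Shared domains were wider and had higher scores per bp than unshared ones. In the 13 genes with a partner above 1, the largest domain measured 1200 bp in the median, with quartiles of 900 and 1350 bp, and its median score was 1.34 per bp. In the 120 genes with an unshared domain these were 450 bp, with quartiles of 300 and 600 bp, and 0.637 per bp (quartiles 0.556 and 0.914). A wide domain reaches a neighbour more readily, so width is not independent of the split. Score per bp moves with width too, and shared and unshared domains were not compared at equal width. Of the 18 genes with a domain in the upper 50% by total score, which rises with width, 11 were among the 13. Of the 17 genes with a domain wider than 900 bp, 9 shared it (52.9%, interval 27.8 to 77.0%), against 17.3% of 5159 genes above 1 with domains that wide. At 900 bp or less it was 4 of 117 (3.42%, interval 0.939 to 8.52%) against 3.28%. In 12 of the 13 genes the domain held more bp on the partner than on the gene itself. The exception, on scaffold 2 (12653788 to 12654104), had 317 bp in its own span and 14 bp on the partner. In 5 of the 12 the gene lay wholly inside the partner, so the partner could not hold fewer bp.

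Very short genes made up much of the shared group. Of 6 genes under 200 bp, 5 had a domain shared with a gene above 1. The rule takes such a span only when it lies wholly in domains, so a wider domain runs beyond it by construction. No share is given here for genes above 1 under 200 bp. Of 11 genes under 500 bp, 7 shared a domain with a gene above 1 (63.6%, interval 30.8 to 89.1%). It was 25 of 93 genes above 1 of that span (26.9%, interval 18.2 to 37.1%). In 5 of the 13 genes the span lay wholly inside that of the partner, with spans from 72 to 232 bp, and without strand the table does not tell whose reads or marks these are. The clearest case was AL1G18090 on scaffold 1 (2941440 to 2941511), with 72 bp the shortest of the 134. A domain of 1200 bp with a score of 1.13 per bp (2940901 to 2942100) covered all of it, and 6% of that domain was its own. The surrounding gene (2939543 to 2942137) had a coverage of 239 and held the whole domain. On the same scaffold a gene of 75 bp (2931050 to 2931124) lay in the same way under a domain of 600 bp inside a gene with a coverage of 181.6. A gene of 74 bp on scaffold 4 (17150635 to 17150708) lay inside a gene with a coverage of 101.7. The other nested genes had weaker partners: 100 bp on scaffold 3 (10517134 to 10517233) in a gene at 1.72, and 232 bp on scaffold 2 (17541836 to 17542067) in a gene at 4.76. Leaving out the 5 nested genes, 6.20% of the remaining 129 shared a domain with a gene above 1.

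In the other 8 genes the domain reached a gene beside the span, with a partner of highest coverage from 3.57 to 306. In 7 of these it lay on 2 genes and in 1 on 3 genes. AL3G14830 on scaffold 3 (1669291 to 1669979), a gene of 689 bp, had the partner of highest coverage. A domain of 1800 bp (1668151 to 1669950) with a score of 2.08 per bp covered 660 bp of it and all 1065 bp of the gene 32 bp to its left (1668194 to 1669258), whose coverage was 306. The score per bp of this domain was among the highest of the group. A gene of 1295 bp on scaffold 4 (18472207 to 18473501) had 444 bp of a 1200-bp domain, of which 724 bp lay on a gene with a coverage of 221.2. On scaffold 8 (21972155 to 21975343) the widest of the shared domains, 2100 bp with 2.21 per bp, lay on 3 genes. It held 296 bp of a gene of 3189 bp, 544 bp of the adjacent gene at 20.3 and, beyond that, 1133 bp of a gene at 6.64. On scaffold 5 (13394804 to 13398695), 245 bp of a span of 3892 bp lay in a domain that held 931 bp of the next gene, at 24.7.

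Unshared domains with a high total score, which rises with width, were few. The domain was in the upper 50% of the list by that score in 7 of the 120 genes (5.83%, interval 2.38 to 11.6%). AL6G18760 on scaffold 6 (3373377 to 3375805) had the most H3K4me3 of these 120 genes: a domain of 2400 bp (3373501 to 3375900) covered 2305 of its 2429 bp, with a score of 2527. The nearest listed gene stood 3105 bp away. H3K27me1 and 5mC lay within 1 kb of it, over 524 and 824 bp. AL4G34290 on scaffold 4 (18700454 to 18702362) held a domain of 1350 bp (18700951 to 18702300) wholly inside its 1909 bp, with 1.56 per bp and none of the other marks within 1 kb. A gene of 1928 bp on scaffold 7 (10897576 to 10899503) held a domain of equal width with 1.97 per bp. The highest score per bp of all 134 genes, 2.38, belonged to a 450-bp domain in a gene of 758 bp on scaffold 5 (2113053 to 2113810), whose nearest listed neighbour stood 4503 bp away. The remaining 3 were genes of 2303 bp on scaffold 4 (4302176 to 4304478), 2156 bp on scaffold 60 (43256 to 45411) and 1738 bp on scaffold 8 (22632148 to 22633885), with 1.56, 1.28 and 1.06 per bp. In 6 of the 7 neither end of the span was in the domain. Score per bp reached 1.23, the median of all H3K4me3 domains, in 13 of the 120 genes (10.8%, interval 5.90 to 17.8%). Not all of the 7 were among these 13. At the other extreme, the longest of the 134 genes, 7263 bp on scaffold 7 (7527978 to 7535240), held 300 bp of H3K4me3 (7528201 to 7528500), 4.13% of its span, with 0.573 per bp.

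The next listed genes on either side had a median coverage of 6.23 (quartiles 2.32 and 16.6, 259 genes), against 7.51 beside the genes above 1 and 6.43 beside the genes at exactly 1 without H3K4me3. Of these neighbours, 11.6% (interval 7.95 to 16.1%) were themselves at exactly 1, against 7.33% beside the genes above 1, which is outside the interval, and 11.0% beside the genes at exactly 1 without H3K4me3, which is inside it. The gap to the nearest listed gene had a median of 492 bp (quartiles 82.5 and 1690 bp), between the 294 bp of the genes above 1 and the 764 bp of the genes at exactly 1 without H3K4me3. A gene that overlapped the span was not counted as its neighbour here. For the 5 genes nested in another, these values therefore skip the surrounding gene.

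Genes that the table does not list could lie under the same domains. Identifiers run along the scaffolds in steps of 10, and 19013 of 23952 neighbouring pairs were exactly 1 step apart, so a missing number may mark a gene left off the list. Both adjacent numbers were listed for 78 of the 134 genes (58.2%, interval 49.4 to 66.7%), against 65.4% of the genes above 1 and 51.4% of the genes at exactly 1 without H3K4me3. In 69 genes both numbers were listed, no span overlapped and the domain was unshared. These had a median span of 1497 bp, a median width of 450 bp and 0.623 per bp, and in 58 of them the domains were wholly inside the span.

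The surroundings held the other marks about as often as those of the genes above 1. H3K27me3 lay in the span or within 1 kb of it in 24 of the 134 genes (17.9%, interval 11.8 to 25.5%), against 14.3%. H3K27me1 was found there in 15 genes (11.2%) against 11.2%, and 5mC in 44 (32.8%, interval 25 to 41.5%) against 31.7%. Each background value is inside the interval. Around genes at exactly 1 without H3K4me3 these shares were 60.9%, 32.5% and 45.9%, but those genes were not barred from carrying the marks themselves. Below the 200-bp limit inside the span, H3K27me3 was present in 1 gene, H3K27me1 in 1 and 5mC in 5.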

How the data were processed

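The members and all lists, bins and measures were chosen with earlier results of these data known. Domains were called for each mark with Bowtie and SICER, per the submitters' processing notes. Their versions and settings, the genome build and any pooling of replicates: not given in the sources used here. The authors deposited a whole-number score per domain, whose meaning is not stated, and a mean exon coverage per gene for 1 mRNA library, with no stated normalization. Per the labels' protocols, DNA libraries took 20 ng and the RNA library 1 µg of material. Input libraries were not used here. Starts were counted from 0 in the domain files and are printed from 1. Base pairs of each gene span in domains were counted with Python 3.11.15, numpy 2.4.6, pandas 2.3.3 and scipy 1.17.1. The counting was tested on simulated data against a base-by-base count. The score per bp is that of the domain with the most bp in the gene. Intervals on shares are Clopper-Pearson, and those on medians are from order statistics. Of the gene identifiers, 0 matched the 34365 genes of the RefSeq table for assembly v.1.0, so no names or sequences are given. The rule printed 4 identifiers: the 2 genes with the most H3K4me3 under an unshared domain and the 2 whose partner had the highest coverage. Positions were given for the longest and shortest spans and the highest scores per bp. The other positions printed were chosen after their values were seen. Thresholds for bp, coverage, score and sharing were varied.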

Additional observations from a re-analysis of the deposited data

How the results depend on the processing

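No paired analysis was possible because each mark has 1 list without values per replicate; leaving out a replicate was not run for the same reason. With 500 bp as the threshold for all marks the group had 54 genes, with a median of 600 bp of H3K4me3 and 0.852 per bp. With 50% of the span it had 60 genes, a median span of 704.5 bp and 0.789 per bp. In all but the shortest spans these rules ask for more H3K4me3 by construction. The threshold rose for the other marks too, so genes with more of those marks than the main rule allows can enter. When only the higher-scoring 50% of every list was used, the group had 22 genes, of which 54.5% shared a domain with a gene above 1. Lower-scoring domains of the other marks were dropped there too, so genes barred by the main rule can enter. The groups in these settings need not be subsets of the 134 genes. In the other settings (100 bp, no bp of other marks, coverage up to 1.1, main scaffolds alone, 150 or 200 bp on the partner, a partner of at least 10, no overlapping genes, and, both chosen after the data were seen, no spans under 200 bp and no shared domains) each value recomputed stayed within 1.5 times the main count or inside the main interval. These settings kept from 121 to 163 genes, mostly the same as the main 134, so most values had little room to move. Unknown depth limits every value: a gene at exactly 1 is not shown to be silent.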

Other observations

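Genes at exactly 1 that carried H3K4me3 together with another mark had a median span of 2126 bp, against 1311 bp with H3K4me3 alone. The shortest spans were 450 and 72 bp. A longer span has more room for a further mark at the threshold, so the split itself sorts by span. How much of the difference this makes was not tested. Both sets held the same median of 450 bp of H3K4me3. Of the 305 genes with another mark, 236 had H3K27me3, 95 had H3K27me1 and 70 had 5mC, some of them more than 1 of these. Genes at exactly 1 with none of the 4 marks at the threshold numbered 429, and 20 of them held some H3K4me3, but under 200 bp.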
